A study of Mus musculus with 2 samples.

Results

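Rhox5, Rhox6 and Rhox9 are homeobox genes of the reproductive homeobox cluster on the X chromosome. They were taken by symbol from the deposited gene lists and are 3 of the 34 Rhox genes and 3 of the 33670 gene symbols listed there. Their UMIs, counts of distinct tagged transcripts, were read in 2 droplet single-cell RNA libraries of embryoid bodies, the aggregates in which mouse embryonic stem cells begin to differentiate. The cells were of the male line J1, so that each carries a single X chromosome. One library came from embryoid bodies given dTAG13 for 2 days and the other from embryoid bodies given DMSO, the solvent, for 2 days. dTAG13 causes the degradation of proteins fused to the FKBP12(F36V) tag. The series title names Tex10, but the labels state neither which protein carries the tag nor whether both libraries come from 1 tagged clone. The genes were chosen by their summed UMIs in both libraries and by their spread and co-expression across DMSO cells. With 1 library per group no test was possible, so every value is a description of these libraries.

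Rhox proteins are DNA-binding transcription factors. The family is known for its activity in the placenta, the germ line and the gonads, and embryonic stem cells also express some members. In mouse, DNA methylation is known to keep the cluster silent in the lineages of the embryo proper, while the trophoblast, the lineage that builds the placenta, keeps parts of it active. Rhox5 was first described as Pem, Rhox6 as Psx1 and Rhox9 as Psx2 or Gpbox.

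Rhox6 and Rhox9 are near copies of each other, which bears on whether their counts can be told apart. The annotated coding sequences of Rhox6-201 and Rhox9-201 in GENCODE M21 are both 681 bases long, align without a gap and are identical at 617 bases (90.6%). Rhox5 (Rhox5-201, 630 coding bases) matches Rhox6 at 62.5% and Rhox9 at 66.8% of 552 aligned bases. The last 120 coding bases, the coding sequence nearest to the 3′ end from which the libraries were read, differ between Rhox6 and Rhox9 at 20 positions. They are shown 5′ to 3′ with the differing bases in capitals.
Rhox6: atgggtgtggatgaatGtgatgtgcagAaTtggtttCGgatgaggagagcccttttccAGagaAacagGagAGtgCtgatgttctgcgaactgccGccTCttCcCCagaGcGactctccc
Rhox9: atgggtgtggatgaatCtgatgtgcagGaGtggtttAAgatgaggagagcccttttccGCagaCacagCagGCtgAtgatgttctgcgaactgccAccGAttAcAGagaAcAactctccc
In the last 500 bases of the Rhox6 transcript, 0 of 411 windows of 90 bases and 0 of 451 windows of 50 bases occur unchanged in the Rhox9 transcript. The closest 90-base window has 4 mismatches and the median window has 15. The sources used here do not say how the authors' counting treated reads that fit both genes, so the split of reads between the pair is uncertain.

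After cells with fewer than 500 genes or more than 10% mitochondrial UMIs were left out, 11588 dTAG13 cells and 17878 DMSO cells remained, with medians of 7072.5 and 6014 UMIs. The kept cells held 91808969 UMIs in the dTAG13 library and 117189816 in the DMSO library. Barcodes shared by kept cells of both libraries numbered 63, and leaving them out gave ratios of 0.340 for Rhox5, 0.249 for Rhox6 and 0.236 for Rhox9. Levels are given as CPM, a gene's UMIs over all UMIs of the library on the usual CPM scale, and ratios are dTAG13 over DMSO. Intervals are exact, at 95%, and cover counting error only. The pluripotency factor Pou5f1 stood at 516 CPM in dTAG13 and 612 CPM in DMSO cells, and Tex10 transcripts, which do not report on the loss of a protein, at 64.7 CPM and 81.3 CPM.

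Summed over cells, all 3 genes were lower in the dTAG13 library. Rhox5 (ENSMUSG00000095180) held 1497 UMIs or 16.3 CPM (15.5 to 17.2) in dTAG13 cells, against 5653 UMIs or 48.2 CPM (47.0 to 49.5) in DMSO cells. Rhox6 (ENSMUSG00000006200) held 1582 UMIs or 17.2 CPM (16.4 to 18.1) in dTAG13 cells and 8139 UMIs or 69.5 CPM (68.0 to 71.0) in DMSO cells. Rhox9 (ENSMUSG00000068048) held 1499 UMIs or 16.3 CPM (15.5 to 17.2) in dTAG13 cells and 8113 UMIs or 69.2 CPM (67.7 to 70.8) in DMSO cells. The log2 ratios were -1.56, -2.01 and -2.08 for Rhox5, Rhox6 and Rhox9, while the median of the 8817 genes that reached 5 CPM in either library was 0.09. Of those 8817 genes, 5.4% were at least 1.5-fold lower and 1.77% at least 2-fold lower in dTAG13, and all 3 genes are among both. The shares higher in dTAG13 were 14.2% at 1.5-fold and 6.17% at 2-fold. Since this contrast chose the 3 genes, nothing is read from their count. In a sum over cells, fewer cells with the transcript and less transcript per cell give the same ratio.

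The rest of the family was nearly silent in both libraries. The other 31 Rhox genes held 528 UMIs in dTAG13 and 966 UMIs in DMSO cells, and 20 of them in dTAG13 and 12 in DMSO cells were at 0, which allows up to 0.0327 and 0.0256 CPM (3 counts of the library). Rhox5, Rhox6 and Rhox9 held 89.7% of all Rhox UMIs in dTAG13 cells and 95.8% in DMSO cells. Rhox13, a member known from the testis and the only other one above 1 CPM, had 415 UMIs or 4.52 CPM in dTAG13 and 671 UMIs or 5.73 CPM in DMSO cells, a ratio of 0.789 (0.697 to 0.894). Its UMIs were spread singly, over 386 dTAG13 cells and 630 DMSO cells. Rhox1, next in UMIs, had 46 in dTAG13 and 97 in DMSO cells, a ratio of 0.605 (0.417 to 0.868). From fewer UMIs, Rhox2a, Rhox4d, Rhox4e and Rhox4g had ratios of 0.106 to 0.295 with upper bounds below 1. For the remaining members with UMIs the intervals reached 1, among them Rhox10 at 0.727 (0.472 to 1.10).

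Genes beside the cluster did not show the difference. Of the 10 nearest RefSeq genes on each side, 13 are in the files and 8 reached 5 CPM. None of the 8 was 1.5-fold lower or higher, and their median log2 ratio was 0.20. Cul4b, a ubiquitin ligase scaffold, had the highest ratio at 1.47, and Nkap the lowest at 0.899. Inside the cluster, Zbtb33, the methyl-CpG-binding factor Kaiso, stood at 6.73 CPM in dTAG13 and 4.26 CPM in DMSO cells, a ratio of 1.58 (1.40 to 1.78). Over the 281 other X-linked genes that reached 5 CPM, the median log2 ratio was 0.10, and 16 were lower and 38 higher by 1.5-fold or more, beside shares of 5.4% and 14.2% over all 8817 genes.

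Each gene was carried by a minority of cells. To compare shares at 1 depth, every cell was thinned at random to 3900 UMIs, which left out 773 dTAG13 and 1755 DMSO cells with fewer. Of 10815 dTAG13 and 16123 DMSO cells so thinned, Rhox5 was seen in 2.72% (2.42 to 3.04) and 7.31% (6.92 to 7.73). Rhox6 was seen in 3.52% (3.18 to 3.89) of dTAG13 and 11.6% (11.1 to 12.1) of DMSO cells. Rhox9 was seen in 3.73% (3.38 to 4.10) of dTAG13 and 11.8% (11.3 to 12.3) of DMSO cells. Without thinning, the shares were 3.79% and 9.25% for Rhox5, 5.53% and 15.1% for Rhox6, and 6.19% and 15.8% for Rhox9, dTAG13 before DMSO in each pair.

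Free RNA in the droplets can give single UMIs in cells that do not make a transcript. A bound for Rhox6 and Rhox9 comes from cluster 4 described below, where 1.04% (0.683 to 1.5) and 0.920% (0.590 to 1.37) of 2608 thinned DMSO cells had a UMI. The median depth was 6099 UMIs in that cluster against 6014 UMIs in the whole DMSO library. The dTAG13 cells of the same cluster gave 0 of 140 for both genes, which allows up to 2.60% by the exact interval. That limit lies not far below the dTAG13 shares of 3.52% and 3.73%, but it is set by the small number of cells. Of 264 thinned dTAG13 cells in cluster 0, also described below, 1.14% (0.235 to 3.28) had a Rhox6 UMI and 0.379% (0.00959 to 2.09) a Rhox9 UMI. How many of the dTAG13 cells with a single UMI come from free RNA is therefore not settled. For Rhox5, the lowest share in a cluster with more than 100 thinned cells was 1.14% (0.235 to 3.28), in the dTAG13 cells of cluster 0. Each Rhox5 cell there had 3 or more UMIs. In DMSO cells the lowest such share was 3.85% (1.42 to 8.18) of 156 cells in cluster 6, so free RNA of Rhox5 was bounded only loosely.

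Among cells with a UMI, the mean number of UMIs was also lower in the dTAG13 library for Rhox6 and Rhox9. Thinned cells with Rhox5 averaged 2.41 UMIs in dTAG13 and 2.55 in DMSO, a ratio of 0.945 beside a ratio of 0.372 for the share of cells. Those with Rhox6 averaged 1.77 UMIs in dTAG13 and 2.20 in DMSO, a ratio of 0.805 beside 0.303 for the share. Those with Rhox9 averaged 1.68 UMIs in dTAG13 and 2.12 in DMSO, a ratio of 0.795 beside 0.316 for the share. Single UMIs of free RNA enter these shares and means in both libraries, and their part was not tested.

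Cells with 3 or more UMIs were fewer in the dTAG13 library. For Rhox5 they numbered 104 (0.962%) in dTAG13 and 448 (2.78%) in DMSO, a ratio of shares of 0.346. For Rhox6 there were 57 (0.527%) in dTAG13 and 494 (3.06%) in DMSO, a ratio of 0.172. For Rhox9 there were 58 (0.536%) in dTAG13 and 499 (3.10%) in DMSO, a ratio of 0.173.

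Rhox5 differed from the other pair in the shape of its distribution. Unthinned DMSO cells with exactly 1, 2, 3, 4, 5 and 6 Rhox5 UMIs numbered 763, 186, 133, 125, 95 and 76, so that past the first step the numbers fell slowly. For Rhox6 the same numbers were 1208, 518, 281, 187, 139 and 90, and for Rhox9 1283, 543, 294, 180, 148 and 100, a steady decline. After thinning, cells with 3 or more UMIs held 66.2% of the Rhox5 UMIs in dTAG13 and 70.1% in DMSO cells. For Rhox6 they held 42.5% in dTAG13 and 57.1% in DMSO cells, and for Rhox9 41.2% and 55.8%.

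**Figure D1:**
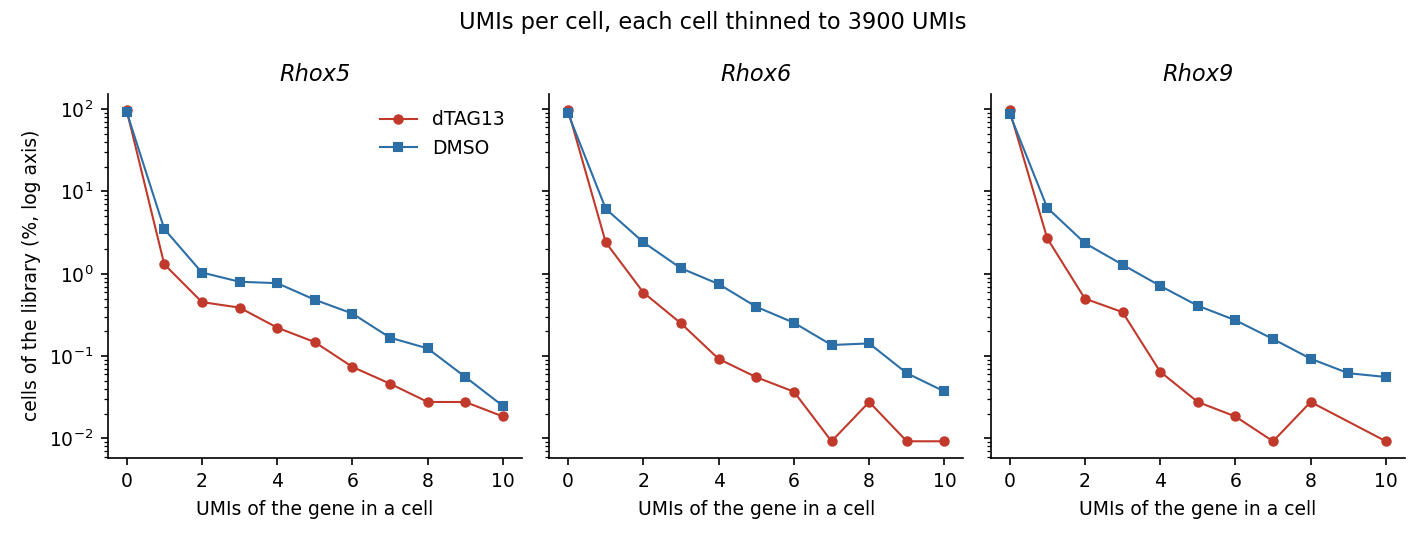
Percent of cells (log axis) with each number of UMIs of Rhox5, Rhox6 and Rhox9, after thinning every cell to 3900 UMIs, for 10815 dTAG13 cells (red circles) and 16123 DMSO cells (blue squares), with points only where at least 1 cell had that number. At each number of UMIs from 1 to 10 the dTAG13 share lies below the DMSO share, and the Rhox5 shares of DMSO cells at 2, 3 and 4 UMIs lie close together.

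The spread across cells is one of the measures by which the genes were chosen, and it is given here as a description only. The variance of UMIs over cells divided by their mean, which is 1 for random sampling alone, was 3.94 in dTAG13 and 3.96 in DMSO cells for Rhox5. It was 3.87 and 3.86 for Rhox6, and 4.45 and 3.41 for Rhox9. Genes of similar mean had medians of 1.02 in dTAG13 and 1.02 to 1.03 in DMSO cells. Among 874, 712 and 714 such genes in DMSO cells, 0 exceeded Rhox5, Rhox6 or Rhox9. Among 1201, 1200 and 1199 in dTAG13 cells, 0 exceeded Rhox5, and 1 gene, Eif1ad10, exceeded Rhox6 and Rhox9.

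Rhox6 and Rhox9 met in the same cells far more often than the product of their shares, and Rhox5 met either of them less far above that product. This co-expression in DMSO cells is also among the measures that chose the genes. Among thinned cells, 116 in dTAG13 and 1045 in DMSO had UMIs of both Rhox6 and Rhox9, which is 8.17 and 4.73 times the product of their shares. Thus 30.4% (25.9 to 35.3) of dTAG13 and 55.7% (53.5 to 58.0) of DMSO cells with Rhox6 also had Rhox9, against 3.73% and 11.8% of all thinned cells. Rhox5 and Rhox6 met in 32 dTAG13 and 254 DMSO cells (3.09 and 1.85 times the product), and Rhox5 and Rhox9 in 22 and 242 (2.01 and 1.74 times).

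At 3 or more UMIs the overlaps were as follows. The 494 DMSO cells with 3 or more Rhox6 UMIs included 233 (47.2%) with 3 or more of Rhox9, and the 57 such dTAG13 cells included 19 (33.3%). Of the 104 dTAG13 and 448 DMSO cells with 3 or more Rhox5 UMIs, 3 (2.88%) and 23 (5.13%) had 3 or more of Rhox6. Across all kept cells, Pearson r of log-scaled UMIs between Rhox6 and Rhox9 was 0.50 over 11588 dTAG13 cells and 0.698 over 17878 DMSO cells. Between Rhox5 and Rhox6 it was 0.07 and 0.09, and between Rhox5 and Rhox9 0.05 and 0.09. In counts this sparse nothing is read from such low r. Thinned cells with UMIs of both genes, given above, were 1.74 to 3.09 times the product of the shares for these pairs. The cells of each r share 1 library and differ in depth. After thinning to 1 depth, r between Rhox6 and Rhox9 was 0.370 in dTAG13 and 0.598 in DMSO cells.

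The other genes most like Rhox6 across DMSO cells were largely those most like Rhox9. Among 6655 genes with a UMI in at least 5% of DMSO cells, 8 of the 9 best-ranked genes besides the partner were shared. Pdlim4, a PDZ and LIM domain protein of the actin cytoskeleton, led both lists, with r to Rhox6 of 0.238 in dTAG13 and 0.346 in DMSO cells. Fthl17a, an X-linked relative of the ferritin heavy chain, had r to Rhox6 of 0.228 and 0.303, and Calcoco2, an autophagy receptor, 0.209 and 0.294, dTAG13 before DMSO. The fatty acid-binding protein Fabp3 had 0.193 and 0.268, and the calcium-binding protein S100a13 0.193 and 0.260. Cyba, a subunit of the NADPH oxidase, the pro-apoptotic Bik, Krtdap and Tceal9 completed the list for Rhox6 with DMSO values of 0.209 to 0.217. Fabp5 took the place of Tceal9 for Rhox9, with 0.07 in dTAG13 and 0.212 in DMSO cells.

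At the other end stood Stmn2, a microtubule regulator, with r to Rhox6 of -0.119 in dTAG13 and -0.327 in DMSO cells. It was followed by the mitochondrial protein Chchd10 with -0.130 and -0.284, the ferritin light chain Ftl1 with -0.09 and -0.247, and the elongation factor Tcea3 with -0.10 and -0.233. The small heat shock protein Hspb1 had 0.04 in dTAG13 and -0.211 in DMSO cells, the only one of these genes whose sign differed between the libraries. Of the 10 genes most like Rhox6 in DMSO cells, 6 were also among the 10 in dTAG13 cells, and the count for Rhox9 was likewise 6. X-linked genes made up 2 of the 14 other genes with r of at least 0.2 to Rhox6, Fthl17a and Tceal9, against 3.16% of the 6586 genes considered that have a known chromosome. For Rhox5 the highest r to any gene was 0.101, with Calcoco2, and 0 genes reached 0.2 in either direction.

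**Figure D2:**
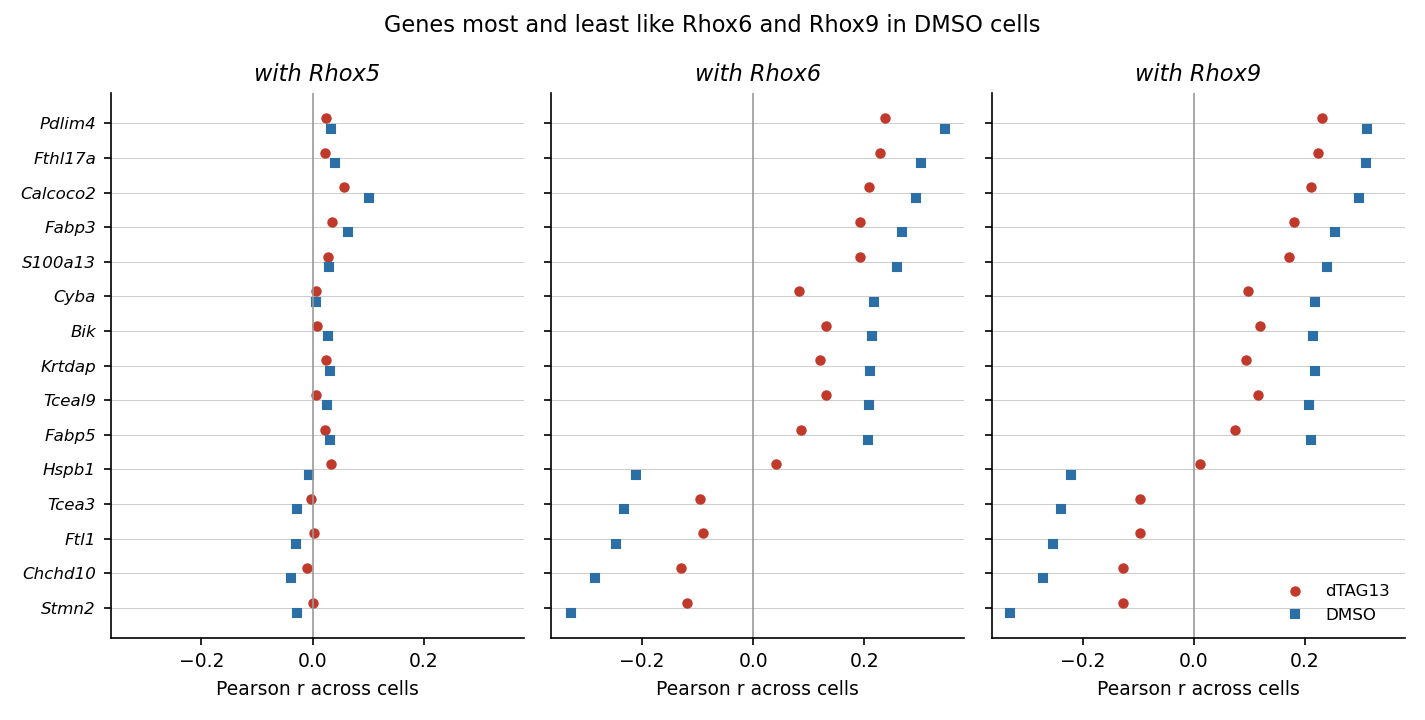
Pearson r across cells of log-scaled UMIs between each of Rhox5, Rhox6 and Rhox9 (panels) and the 15 genes most or least like Rhox6 or Rhox9 in DMSO cells, for 11588 dTAG13 cells (red circles) and 17878 DMSO cells (blue squares). Values with Rhox6 and Rhox9 run from 0.346 to -0.330 in DMSO and lie nearer 0 in dTAG13 cells, and all values with Rhox5 lie between 0.101 and -0.04.

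Bins of cells show the size of these differences. Pdlim4, Calcoco2 and Stmn2 were picked for their r in the same DMSO cells, so their DMSO levels by bin restate that choice. Thinned cells were binned by the sum of both genes into 0, 1 to 2, 3 to 5, 6 to 10 and 11 or more UMIs, which held 10147, 546, 89, 21 and 12 dTAG13 cells and 13394, 1701, 649, 283 and 96 DMSO cells. Because the last 2 dTAG13 bins held so few cells, dTAG13 values are given for the first 3. The median unthinned depth of the bins ranged between 7294 and 7468 UMIs in those 3 dTAG13 bins and between 5963 and 6442 UMIs in the 5 DMSO bins.

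Pdlim4 stood at 3.59, 22.5 and 86.4 CPM over the 3 dTAG13 bins and at 7.39, 39.8, 76.3, 114 and 115 CPM over the 5 DMSO bins. Calcoco2 stood at 192, 557 and 833 CPM in dTAG13 and at 273, 537, 753, 938 and 799 CPM in DMSO cells. Stmn2 went the other way, with 226, 85.9 and 17.3 CPM in dTAG13 and 432, 175, 86.5, 48.0 and 29.4 CPM in DMSO cells. In cells with 3 to 5 UMIs, Pdlim4 and Calcoco2 stood at 86.4 and 833 CPM in dTAG13, against 76.3 and 753 CPM in DMSO. Stmn2 was lower in dTAG13 than in DMSO cells in each of the first 3 bins. The order was not strict for every gene: Calcoco2 was lower at 11 or more UMIs than at 6 to 10 in DMSO cells. Without cluster 12, described below and left out after the values were seen, Calcoco2 stood at 963 CPM at 6 to 10 UMIs. At 11 or more it then stood at 974 CPM, so that dip was not seen without cluster 12. Hspb1 stood at 1593, 1655 and 2126 CPM in dTAG13, against 1713, 1292 and 1086 CPM over the same 3 bins of DMSO cells.

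The marker lists differed over the same bins. The 12 formative pluripotency genes, active when stem cells leave the naive state, summed to 138, 69.5 and 72.0 CPM in dTAG13 and to 217, 116, 71.1, 55.3 and 53.4 CPM in DMSO cells. The 19 naive pluripotency genes summed to between 7649 and 8395 CPM over the dTAG13 bins and to between 7751 and 9385 CPM over the DMSO bins. The trophoblast list (17 genes) summed to 190, 286 and 593 CPM in dTAG13 and to 62.4, 124, 160, 243 and 1020 CPM in DMSO cells. Without cluster 12, a trophoblast-like group described below and left out here after the values were seen, the last DMSO bin (75 cells) had 222 CPM and the third dTAG13 bin 501 CPM. The naive list summed to 8950 CPM in that last DMSO bin without cluster 12, against 7751 CPM with it.

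Some members of these lists, and Dnmt3l from another list, show the detail. They were chosen after their values were seen. Dppa3, a maternal factor that protects DNA from demethylation in the zygote, stood at 50.03, 102 and 147 CPM in dTAG13 and at 41.5, 85.6, 109, 157 and 195 CPM in DMSO cells. Other naive genes went different ways. Nanog stood at 70.8, 82.7 and 124 CPM in dTAG13 and at 85.5, 90.7, 88.9, 85.2 and 90.8 CPM in DMSO cells. Tet2 stood at 52.1, 55.9 and 98.0 CPM in dTAG13 and at 66.0, 66.2, 66.8, 73.4 and 56.1 CPM in DMSO cells. Klf4 and Zfp42 stood lower in the cells with more UMIs. Klf4, a pluripotency transcription factor, had 30.8, 20.7 and 5.76 CPM in dTAG13 and 40.2, 25.9, 19.0, 10.9 and 2.67 CPM in DMSO cells. Zfp42 had 432, 351 and 228 CPM in dTAG13 and 656, 517, 425, 409 and 280.4 CPM in DMSO cells. Without cluster 12 the last DMSO bin had 356 CPM of Zfp42. The de novo methyltransferase Dnmt3b stood at 28.5, 13.6 and 11.5 CPM in dTAG13 and at 34.2, 21.3, 9.48, 8.15 and 8.01 CPM in DMSO cells. Its cofactor Dnmt3l stood at 41.5, 25.8 and 8.64 CPM in dTAG13 and at 27.2, 15.4, 10.7, 3.62 and 2.67 CPM in DMSO cells. Dnmt3l belongs to a list of 25 genes for DNA methylation and repressive chromatin, which also holds Dnmt3b. That whole list differed less, with sums of 2510, 2367 and 2299 CPM in dTAG13 cells. In DMSO cells it summed to 2934, 2755, 2678, 2699 and 2382.5 CPM. The lowest Klf4, Dnmt3b and Dnmt3l levels come from bins of few cells. They rest on a few UMIs each and carry wide counting error. Rhox5 itself, which took no part in the binning, stood at 15.4, 34.8 and 46.1 CPM in dTAG13 and at 42.4, 65.1, 72.3, 101 and 163 CPM in DMSO cells.

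**Figure D3:**
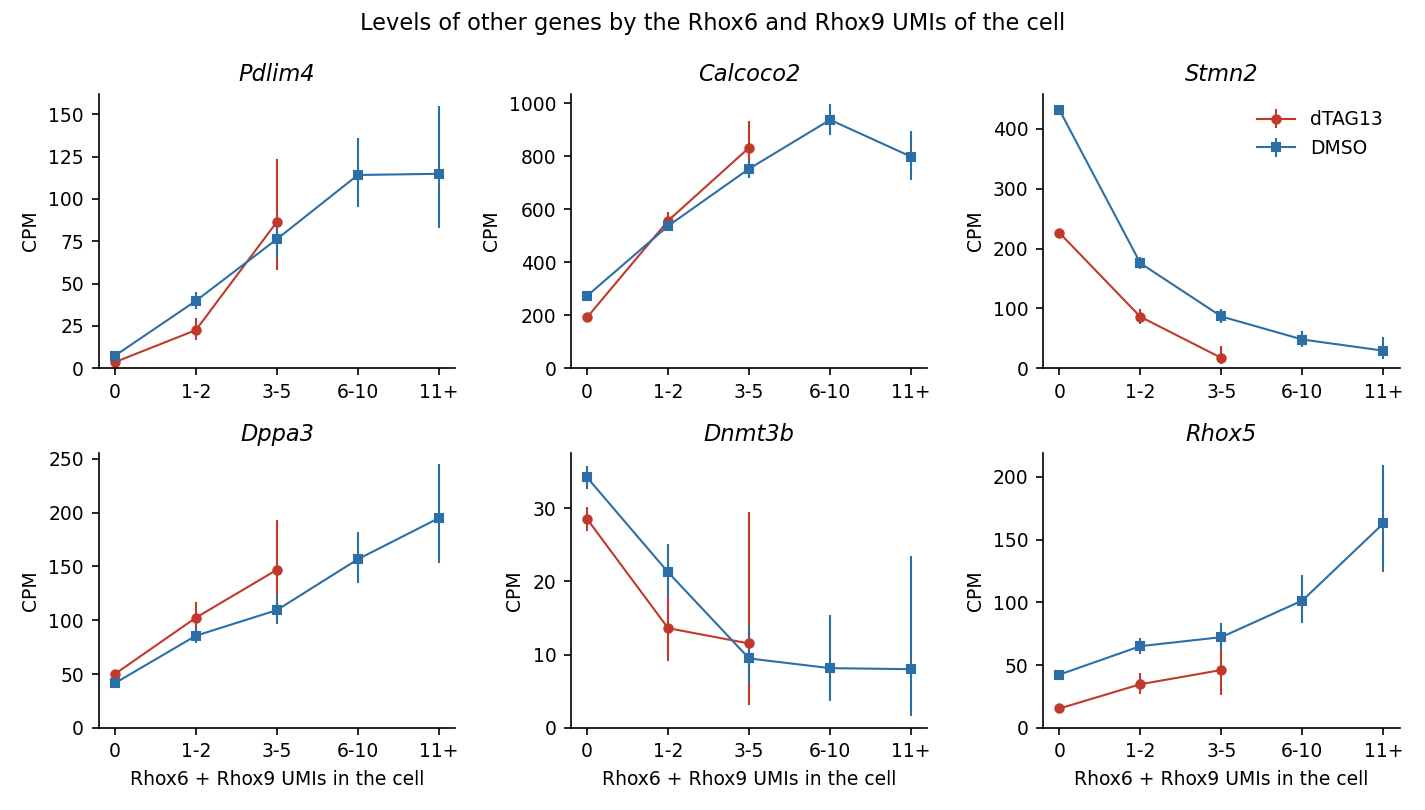
Level in CPM of Pdlim4, Calcoco2, Stmn2, Dppa3, Dnmt3b and Rhox5 in cells thinned to 3900 UMIs and binned by their Rhox6 plus Rhox9 UMIs, for dTAG13 (red circles) and DMSO (blue squares), with bars for exact 95% Poisson intervals and only bins of at least 50 cells. Pdlim4, Calcoco2, Dppa3 and Rhox5 are higher, and Stmn2 and Dnmt3b lower, in cells with 3 to 5 UMIs than in cells with 0 in both libraries. For Dnmt3b in dTAG13 cells the level at 3 to 5 UMIs rests on few counts, and its interval reaches the level of cells with 0.

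Bins by Rhox5 UMIs gave smaller differences for the formative list and no order for Stmn2. Over DMSO cells with 0, 1 to 2, 3 to 5 and 6 or more Rhox5 UMIs (14944, 731, 331 and 117 cells), the formative list summed to 200.2, 158, 157 and 149 CPM and Stmn2 stood at 386, 316, 351 and 390 CPM. In these DMSO cells Dnmt3b was lower at each step, at 31.7, 28.4, 20.1 and 15.3 CPM, the last from few UMIs. Calcoco2 stood at 323, 500.2, 490.4 and 458 CPM. Cells of the dTAG13 library with 0, 1 to 2 and 3 to 5 Rhox5 UMIs (10521, 190 and 82 cells) had 134, 97.2 and 175 CPM of the formative list and 217, 193 and 244 CPM of Stmn2. Dnmt3b stood at 27.5, 27.0 and 31.3 CPM over these dTAG13 bins. The last of these levels rests on few UMIs in 82 cells, so a fall of the size in DMSO cells could not be seen there.

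To place the genes among cell states, the cells of both libraries were clustered together without any Rhox gene, which gave 13 clusters. Most clusters came mainly from 1 library, and with 1 library per group such a cluster may be that library and not a cell type. The levels by cluster are therefore given with the cells of each library apart. By marker genes, 2 clusters could be named. Cluster 12 (12 dTAG13 and 53 DMSO cells) was trophoblast-like, with 11 of 17 markers at 10 CPM or more and 2-fold over other cells, among them Plac1, Hand1 and Krt18. Cluster 10 (68 dTAG13 and 80 DMSO cells) was 2-cell-like, with 9 of 14 markers, among them Zscan4c and Zscan4d. Cluster 7 (2485 dTAG13 and 57 DMSO cells) had 6 of the 17 trophoblast markers, Krt7, Krt8, Krt18, Krt19, Hand1 and Ascl2, and stays unnamed because nearly all of its cells come from the dTAG13 library.

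Rhox6 and Rhox9 were concentrated in clusters 12 and 1. In cluster 12, Rhox6 stood at 2179 CPM (1943 to 2437) in dTAG13 and 1558 CPM (1438 to 1686) in DMSO cells, and Rhox9 at 1429 CPM (1239 to 1641) and 1202 CPM (1096 to 1315). A Rhox6 UMI was seen in 91.7% of the 12 dTAG13 and 74.5% of the 47 DMSO cells deep enough for thinning. These 12 dTAG13 cells held 19.5% of all Rhox6 UMIs and 13.5% of all Rhox9 UMIs of their library, and the 53 DMSO cells held 7.57% and 5.85% of theirs. The largest number in 1 cell of the dTAG13 library was 92 UMIs of Rhox6 and 49 of Rhox9, against 72 and 44 in the DMSO library.

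Cluster 1, led by Pdlim4, Fthl17a, Cfc1, Bik and S100a13, held 208 dTAG13 and 3810 DMSO cells. Its leading genes helped to build it and overlap with the genes most like Rhox6, so their levels there are no separate result. Rhox6 stood at 98.5 CPM (83.4 to 116) in its dTAG13 and 240 CPM (234 to 246) in its DMSO cells, and Rhox9 at 119 CPM (103 to 138) and 243 CPM (237 to 249). These cells held 9.54% of the Rhox6 and 12.2% of the Rhox9 UMIs of the dTAG13 library, and 72.6% and 73.7% of those of the DMSO library. Among thinned cells 21.9% in dTAG13 and 39.5% in DMSO had a Rhox6 UMI. Without the cells of cluster 1, left out after the data were seen, the ratio of the remaining cells was 0.658 (0.616 to 0.704) for Rhox6, 0.633 (0.590 to 0.678) for Rhox9 and 0.359 (0.338 to 0.382) for Rhox5. The higher ratios of Rhox6 and Rhox9 follow from the shares of UMIs given above. Within cluster 1 the ratio was 0.411 (0.347 to 0.483) for Rhox6 and 0.492 (0.422 to 0.570) for Rhox9. Leaving out any other single cluster gave 0.205 to 0.296 for Rhox6, 0.196 to 0.268 for Rhox9 and 0.303 to 0.358 for Rhox5.

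Cluster 4, led by Mras, Septin1 and Aard, was at the opposite end for Rhox6 and Rhox9 but not for Rhox5. Its 142 dTAG13 and 2781 DMSO cells held 1 and 50 UMIs of Rhox6 (0.873 and 2.76 CPM) and 0 and 56 UMIs of Rhox9. Rhox5 stood at 46.3 CPM (34.7 to 60.5) in dTAG13 and 57.9 CPM (54.5 to 61.5) in DMSO cells of this cluster. Among clusters with more than 2000 DMSO cells, the order of Rhox9 levels in DMSO cells began with cluster 4 at 3.09 CPM, followed by cluster 0 at 10.4 CPM, cluster 5 at 14.7 CPM and cluster 2 at 35.8 CPM, with intervals that do not overlap among these 4. Cluster 1 at 243 CPM and the small cluster 12 at 1202 CPM stood above all others, with intervals apart from theirs. The small clusters 3, 6, 7, 8, 9, 10 and 11 fell at 16.1 to 85.6 CPM, and among these 7 the intervals of neighbours in the order overlapped. In cluster 7, with its trophoblast keratins, Rhox6 stood at 15.3 CPM (13.7 to 17.1) in dTAG13 and 64.2 CPM (42.3 to 93.4) in DMSO cells.

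Rhox5 was spread over the clusters. In DMSO cells it ranged from 4.75 CPM (2 UMIs in the 57 cells of cluster 7) to 83.9 CPM (cluster 8), and the 5 clusters with more than 2000 DMSO cells had 27.2 CPM (cluster 0), 60.0 CPM (cluster 1), 63.2 CPM (cluster 2), 57.9 CPM (cluster 4) and 36.9 CPM (cluster 5). In the 4 clusters with more than 2000 dTAG13 cells, 3, 6, 7 and 8, its dTAG13 level was 16.2, 12.7, 13.8 and 18.9 CPM. Cells of the dTAG13 library that fell in clusters 2, 4 and 5 had 70.4, 46.3 and 38.5 CPM, from 73, 142 and 119 cells. In cluster 12, Rhox5 stood at 63.7 CPM (29.1 to 121) in dTAG13 and 81.0 CPM (55.4 to 114) in DMSO cells, within the range of the other clusters.

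Within clusters, the ratios of Rhox6 and Rhox9 stayed below 1 more evenly than that of Rhox5. Over the 10 clusters in which both libraries had 50 cells or more, Rhox6 ratios ran from 0.0453 to 0.424 and Rhox9 ratios from 0.0641 to 0.748, besides 0 UMIs of Rhox9 in dTAG13 cells of cluster 4. The upper bound was below 1 in 9 of 10 clusters for Rhox6 and in 8 of 10 for Rhox9. For Rhox5 the ratio was 1.11 (0.796 to 1.52) in cluster 2, 1.04 (0.744 to 1.43) in cluster 5 and 0.799 (0.594 to 1.05) in cluster 4, so no difference was detectable there at this depth. The same holds for cluster 6 at 0.644 (0.423 to 1.02) and for cluster 7 at 2.90 (0.797 to 24.1), where the DMSO cells held 2 UMIs. In cluster 2 the matching ratios were 0.0453 (0.00115 to 0.253) for Rhox6 and 0.192 (0.0522 to 0.493) for Rhox9, from 1 and 4 dTAG13 UMIs. Rhox5 was lower in clusters 8 (0.226, 0.173 to 0.298), 10 (0.218, 0.0813 to 0.503), 1 (0.359, 0.246 to 0.506), 3 (0.512, 0.390 to 0.683) and 0 (0.523, 0.359 to 0.739). The dTAG13 and DMSO levels of these 10 clusters were also weighted by the DMSO cluster shares. That left out clusters 9, 11 and 12, the last of which had the highest Rhox6 and Rhox9 levels. The weighted ratios were 0.746 for Rhox5, 0.358 for Rhox6 and 0.425 for Rhox9. The clusters that carry nearly all of that weight, 0, 1, 2, 4 and 5, hold 277, 208, 73, 142 and 119 dTAG13 cells.

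**Figure D4:**
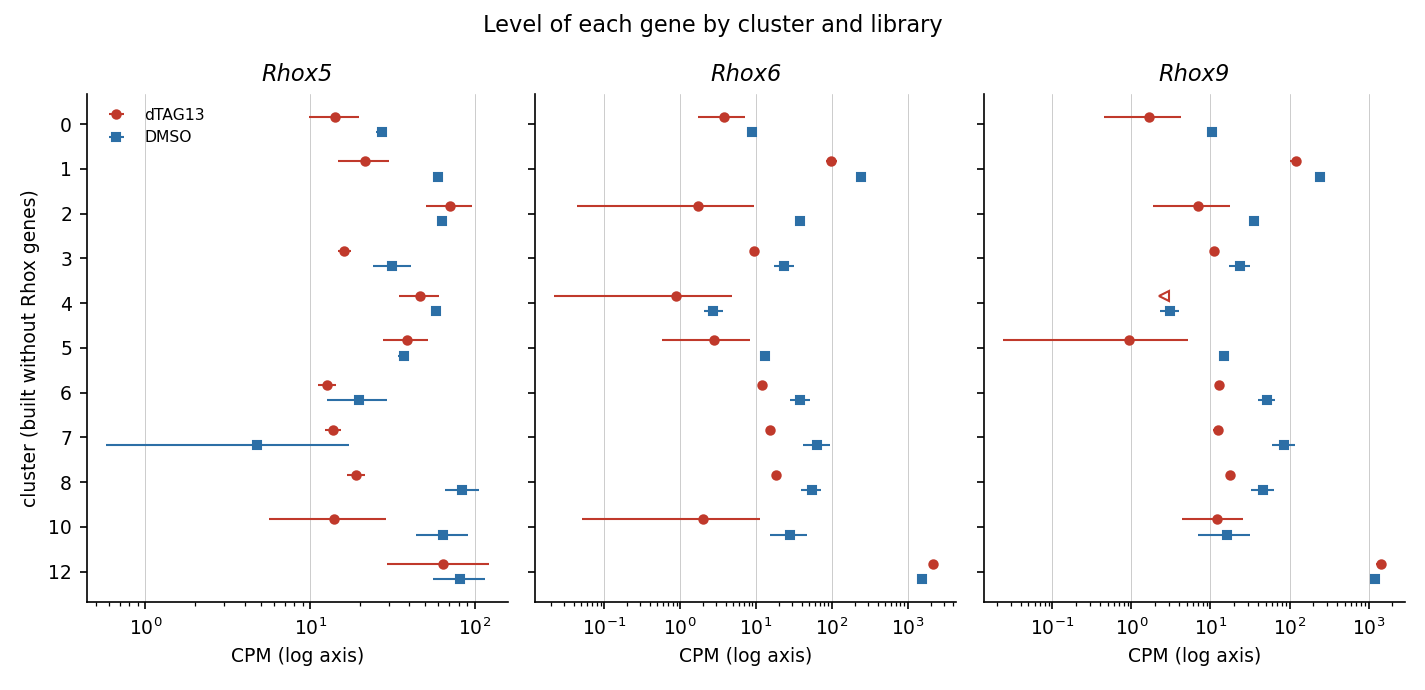
Level in CPM (log axis) of Rhox5, Rhox6 and Rhox9 in the 10 clusters where each library had 50 or more cells and in cluster 12, for dTAG13 cells (red circles) and DMSO cells (blue squares), with bars for exact 95% Poisson intervals and an open triangle at the level of 3 UMIs where 0 were counted. Rhox6 and Rhox9 are highest in clusters 12 and 1 and lowest in cluster 4, and Rhox5 has its DMSO levels between 4.75 and 83.9 CPM with no such peak.

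Several measures moved with the groups, and their part in the result was not tested. Called by their cycle genes, 8155 dTAG13 and 13209 DMSO cells were in G2 and M phase, 1723 and 4504 in S phase and 1710 and 165 in G1 phase. Within G2 and M cells the ratios were 0.295 for Rhox5, 0.238 for Rhox6 and 0.237 for Rhox9, within S cells 0.471, 0.217 and 0.208, and within G1 cells 0.420, 0.117 and 0.112. Of 28 p53 target genes with at least 5 CPM, 24 were at least 1.5-fold higher in dTAG13 and 0 lower, against 14.2% higher over all 8817 genes. Mdm2, the ubiquitin ligase that limits p53, stood at 364 CPM in dTAG13 and 45.3 CPM in DMSO cells. Of the 7 measured trophoblast genes, 6 were at least 1.5-fold higher and 0 lower, Krt8 at 29.9 CPM in dTAG13 and 11.3 CPM in DMSO cells among them, while Rhox6 and Rhox9, high in the trophoblast-like cells, were lower.

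Lists tied to the known control of the cluster are read beside the 5.4% lower and 14.2% higher over all 8817 genes. Of 24 measured genes for DNA methylation and repressive chromatin, 4 were at least 1.5-fold lower and 2 higher, with a median log2 ratio of -0.11 against 0.09 for all genes. Uhrf1, which brings the maintenance methyltransferase to replicated DNA, stood at 42.6 CPM in dTAG13 and 71.5 CPM in DMSO cells. The co-repressor Trim28 stood at 118 CPM and 197 CPM, the H3K9 methyltransferase Ehmt2 at 19.6 CPM and 32.2 CPM, and Suv39h1, of the same class, at 18.3 CPM and 10.7 CPM. Of 6 measured germline genes known to depend on DNA methylation for their silence, 1 was lower and 2 were higher. Hormad1, a meiotic chromosome axis protein, stood at 70.3 CPM in dTAG13 and 27.5 CPM in DMSO cells, and Zfp42, also a naive marker, at 406 CPM and 619 CPM.

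Against the same shares of 5.4% lower and 14.2% higher stand the pluripotency and germ cell lists. Of 11 measured genes shared by naive and later pluripotency, 1 was at least 1.5-fold lower and 0 higher. Of 18 measured naive genes 5 were at least 1.5-fold lower and 1 higher, with Tcl1, a cofactor of the kinase Akt, at 12.8 CPM in dTAG13 and 45.4 CPM in DMSO cells. Of 9 measured formative genes 1 was lower and 2 were higher, with Tcf15 at 34.7 CPM and 96.5 CPM. Of 10 measured germ cell genes 4 were lower and 2 higher, with the germ cell regulator Prdm1 at 9.02 CPM in dTAG13 and 16.7 CPM in DMSO cells.

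Few markers of other cell types reached 5 CPM, and some of them moved with the groups. None of 9 primitive streak genes did. Of 9 feeder fibroblast genes 2 did, and the list summed to 88.2 CPM in dTAG13 and 34.9 CPM in DMSO cells, mostly Tagln, an actin-binding protein, at 85.7 CPM and 27.6 CPM. Of 7 neural genes 2 did, with the intermediate filament Nes at 20.99 CPM in dTAG13 and 5.64 CPM in DMSO cells and the tubulin Tubb3 at 38.0 CPM and 53.4 CPM. Of 14 extraembryonic endoderm genes 3 did, and the list summed to 273 CPM in dTAG13 and 188 CPM in DMSO cells, with the matrix protein Sparc at 229.8 CPM and 158 CPM. Their part in the Rhox levels was not tested.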

How the data were processed

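The values are UMI counts of 10x Chromium 3′ libraries, 1 per group, deposited by the authors as whole numbers per gene and barcode. Per the file headers, Cell Ranger 8.0.1 produced them. Seurat 5.0.1, R 4.3.2 and mm10 are listed in the submitters' processing notes without a role. Of 33696 gene identifiers 5.15% are absent from GENCODE M21, so the build is not settled and no coordinates are given. Counts of 26 symbols with 2 identifiers were summed. No doublets were removed.

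From the counts, CPM with exact Poisson intervals, ratios with exact conditional binomial intervals and shares with exact binomial intervals were computed (scipy 1.17.1), all at 95%. Pearson r used log1p of counts scaled to 10000 per cell. Phases and clusters came from scanpy 1.11.5 and leidenalg 0.10.2 (2000 variable genes without Rhox genes, 30 principal components, 15 neighbours, resolution 1). The genes, lists and settings were chosen with earlier results of these data known. Genes are named by rule: family members above 1 CPM, the 10 highest and 5 lowest r per member, cluster neighbours above 5 CPM and up to 4 members of a list with the largest log2 ratio above 10 CPM. Not every gene so selected is described, and some family members below 1 CPM are named besides. The functions were tested on simulated data.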

Additional observations from a re-analysis of the deposited data

How the results depend on the processing

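Under 11 alternative settings the ratios stayed below 1 and ranged from 0.295 to 0.746 for Rhox5, 0.217 to 0.358 for Rhox6 and 0.208 to 0.425 for Rhox9. Those beyond the counting interval were the following, and the cause was not tested. Thinning to 3900 UMIs gave 0.251 for Rhox9, and weighing every cell the same gave 0.224 for Rhox6. Without the 5% of cells with most UMIs the ratios were 0.362 for Rhox5 and 0.232 for Rhox6. Cells called G2 and M gave 0.295 for Rhox5, and cells called S gave 0.471, 0.217 and 0.208 for Rhox5, Rhox6 and Rhox9. An equal make-up of clusters gave 0.746, 0.358 and 0.425. Added after the data were seen, leaving out cluster 1 gave 0.359, 0.658 and 0.633, and leaving out cluster 12 gave 0.216 for Rhox6 and 0.216 for Rhox9.

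Shares of cells with a UMI follow depth. Unthinned, they were 3.79% in dTAG13 and 9.25% in DMSO cells for Rhox5, 5.53% and 15.1% for Rhox6, and 6.19% and 15.8% for Rhox9. At 2000 UMIs they were 1.84% and 5.11%, 2.24% and 8.15%, and 2.03% and 8.32% in the same order. The variance over the mean at 2000 UMIs was 2.78 in dTAG13 and 2.38 in DMSO cells for Rhox5, 2.82 and 2.40 for Rhox6, and 3.46 and 2.18 for Rhox9. Of the 10 genes most like Rhox9, 6 were kept with thinned UMIs. The other 52 recomputed values, among them the r between members in DMSO cells, the highest cluster levels and the counts over lists, stayed within their limits. The r between members in dTAG13 cells was not among the values checked in this way.

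No paired analysis was possible because each group has 1 library. With 1 library per group, a difference between libraries cannot be told apart from one between treatments, and no interval here covers it. Single UMIs per cell limit what can be said of low levels. Clusters depend on genes that differ between the libraries, and doublets and free RNA remain in the counts.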
